A study of Drosophila melanogaster with 4 samples.

Results

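Isolated H3K79me2 domains are enriched regions that stand alone on a chromosome arm, with no other enriched region within 25 kb on either side. They were chosen by measured values, the gaps to the previous and to the next region of the same arm of X, 2L, 2R, 3L or 3R in the list that the authors called on the replicate set, leaving out the first and the last region of each arm. The rule found 376 isolated domains among 5314 enriched regions in all. The 5 large arms held 5160 of these regions, and the isolated domains are set against the 4774 others that have a neighbour within 25 kb on at least 1 side. Of those 4774, 1470 had a gap of at least 25 kb on 1 side and 3304 on no side.

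The libraries came from chromatin immunoprecipitation with sequencing of formaldehyde-fixed whole embryos of wild-type Oregon-R Drosophila melanogaster, labelled 14 to 16 h of development. There were 2 ChIP samples, made with an antibody against dimethylated lysine 79 of histone H3, and 2 input samples, which took no antibody step and served the authors' region calls. Whole embryos mix all cell types, so a mark in few cells and a weak mark in many cells cannot be told apart. Whether the 2 ChIP replicates are separate embryo collections is not stated, and their spread can be technical.

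Methylation of H3 lysine 79 is set by the Dot1 family of methyltransferases, named grappa in the fly. Unlike most histone marks it lies in the globular core of the nucleosome and not on a tail. It is known from flies and mammals as a mark of transcribed genes that is strongest in their 5′ part. Active housekeeping genes tend to lie close together in the fly genome, whereas many tissue-specific and developmental genes lie in long stretches of chromatin without active marks. No gene is named from a position here, because the files use FlyBase release 5 and the gene table at hand is of release 6, and no sequence of release 5 was at hand either.

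The isolated domains were small islands in long empty stretches. The smaller of their 2 gaps had a median of 39.1 kb, with a lowest value of 25009 bp and a highest of 173 kb, and the larger gap had a median of 78.6 kb and a highest value of 348 kb. From neighbour to neighbour these stretches had a median length of 126 kb, of which the domain itself filled a median of 2.33%. Together the stretches made up 45.5 Mb, or 38.2% of the 119 Mb of the 5 arms. At least 1 gap of 100 kb or more bordered 124 of the 376 domains (33.0%), and 19 had such a gap on both sides. The smaller gap had a median length of 61.6% of the larger (quartiles 41.2% and 80.6%). The rule holds both gaps to at least 25 kb, which affects this ratio, so nothing is read from it about placement.

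More isolated domains had another isolated domain as their neighbour than stood by themselves. No isolated neighbour was found for 168 (44.7%), whereas 208 stood in 61 runs of 2 and 25 runs of 3 or more. By the rule, each neighbour of an isolated domain has a gap of at least 25 kb on that side. Such neighbours are therefore drawn from the isolated domains, the 1470 regions with 1 such gap and the arm ends. The share with an isolated neighbour that this alone would give was not worked out, so no clustering is read from these counts. The longest runs held 6 domains each, and both were on 2L. The first spanned 400 kb and opened with a 3.50 kb domain from 1255696 to 1259190, of score 0.78. It closed with a 5.63 kb domain from 1609474 to 1615100 of score 3.29 and another from 1650354 to 1655988 of score 2.61. The second spanned 271 kb near the centromere end of the assembled arm, from 22647678 to 22918412, with scores from 0.25 to 2.49. Low and high scores therefore stood side by side in both runs.

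The 10 domains with the largest smaller gap were split among X (3), 2R (3), 2L (2) and 3L (2), with at least 120 kb free of regions on either side. Their scores ran from 0.72 to 2.44, their widths from 2.19 to 6.71 kb, and each was 1 single region in each replicate list. The score is the authors' value for a region, with no unit stated in the files, and is compared here by differences. The most isolated domain lay on X from 12097040 to 12100622, with 173 kb to the previous and 225 kb to the next region. It scored 1.63 in replicate 1 and 1.47 in replicate 2, and measured 2.91 kb in replicate 1 and 3.77 kb in replicate 2. Another on X, from 13889504 to 13892472, stood 149 kb and 201 kb from its neighbours and scored 2.60 in replicate 1 and 1.70 in replicate 2.

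The 3L domain from 24223878 to 24226068, 2.19 kb wide, was bordered by 156 kb and 303 kb and scored 0.69 in replicate 1 and 0.74 in replicate 2. The 2L domain from 17962436 to 17964858, 2.42 kb wide, was bordered by 184 kb and 149 kb and scored 1.96 in replicate 1 and 1.34 in replicate 2. The highest score of the 10 belonged to a 6.71 kb domain on 2R from 15713222 to 15719928, with gaps of 132 kb and 278 kb. It scored 2.37 in replicate 1 and 2.56 in replicate 2, so the lone position of a domain did not go with a low score in every case. Replicate 1 gave the higher score for 8 of these 10 domains. This leaned the same way as the regions in general. Replicate 2 gave the higher score for only 38.8% of the 294 isolated domains paired between the lists and 33.8% of the paired other regions.

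Isolated domains scored lower than other regions. Their median score in the replicate set was 1.06 (quartiles 0.49 and 1.88), against 2.03 (0.91 and 2.62) for the other regions, a difference of -0.97. Among these other regions the median was 1.70 with 1 gap of at least 25 kb and 2.14 with none. Scores under 1 were held by 178 isolated domains, or 47.3%, where 29.0% of all 5150 regions considered scored under 1. Scores of 2 or more were held by 79 isolated domains, or 21.0%, against 48.7% of all. The rule and the score come from the same list, so these values are a description without a test. The same rule applied to each replicate list gave 394 isolated domains in replicate 1 and 344 in replicate 2. Median scores of isolated domains minus those of other regions were -1.01 in replicate 1 and -0.63 in replicate 2 (mean -0.82 ± 0.26, SD, n = 2). When the higher-scoring 50% of regions alone were kept before gaps were measured, which removes low scores, the difference was -0.10.

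**Figure D1:**
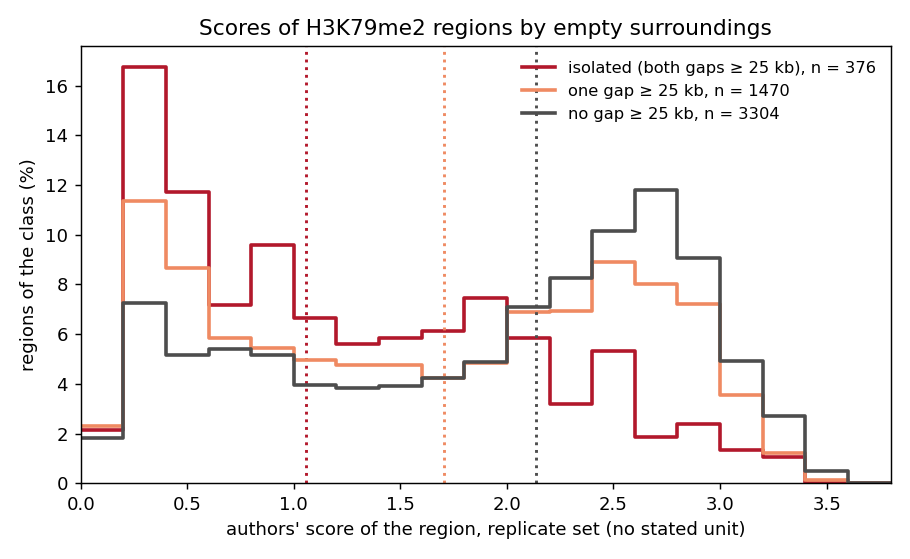
Scores in the replicate set (x axis, no stated unit) as a percentage of each class (y axis) for isolated domains, regions with 1 gap of at least 25 kb and regions with none; dotted lines mark the medians. The isolated domains peak at low scores with a median of 1.06, whereas regions with a neighbour within 25 kb on each side have a median of 2.14.

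The score followed the distance to the nearest neighbour in steps. Regions whose smaller gap was under 5 kb had a median score of 2.19 (n = 3280), those at 5 to 10 kb had 1.67 (n = 832), and those at 10 to 25 kb had 1.21 (n = 662). Isolated domains had 1.06 at 25 to 50 kb (n = 256) and 1.07 at 50 kb and over (n = 120). The medians of the 2 isolated classes were thus close, beside quartiles of 0.46 and 1.99 at 25 to 50 kb and 0.51 and 1.69 at 50 kb and over. The share of regions scoring 2 or more was 57.1% under 5 kb, 41.8% at 5 to 10 kb, 31.4% at 10 to 25 kb, 24.2% at 25 to 50 kb and 14.2% at 50 kb and over.

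**Figure D2:**
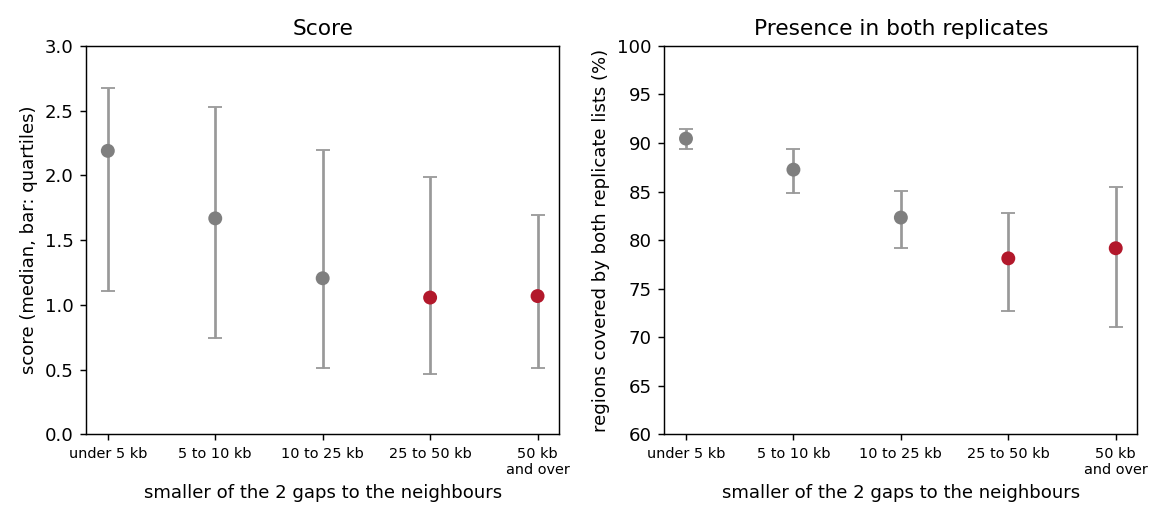
Median score with quartiles (left) and percentage of regions covered by both replicate lists with 95% Wilson intervals (right; the axis starts at 60%), by the smaller of the 2 gaps of a region; isolated domains are in red. Scores step down from 2.19 under 5 kb to 1.06 and 1.07 in the classes beyond 25 kb, and presence in both lists goes from 90.5% to 78.1% and 79.2%.

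In width the isolated domains stood closer to the rest. Their median was 2866 bp (quartiles 2113 and 3755.5 bp), against 3090 bp (2463 and 4251 bp) for the other regions, a difference of -224 bp. The rule applied to the replicate lists gave differences of -189.5 bp in replicate 1 and -163 bp in replicate 2 (mean -176 ± 18.7, SD, n = 2). With a limit of 50 kb in place of 25 kb the difference had the opposite sign, 22 bp, so the sign of the width difference depends on the limit. Regions with 1 gap of at least 25 kb had a median width of 2881 bp, close to that of the isolated domains. Those with none had 3185 bp. The widest isolated domain measured 10.1 kb, against 18.7 kb for the widest other region.

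At like width the isolated domains still scored lower, except among the narrowest. Among regions of 3 to 4 kb the median score was 1.45 for 95 isolated domains, against 2.29 for 1101 other regions. Among regions of 4 kb and over it was 1.99 (n = 83) against 2.60 (n = 1394), and among those of 2 to 3 kb it was 0.85 (n = 127) against 1.32 (n = 1755). Under 2 kb the medians were 0.30 for 71 isolated domains and 0.30 for 524 other regions. At like score the widths differed in 1 class of 3, with a median of 3397 bp (n = 119) against 3036 bp (n = 1032) at scores of 1 to 2. They were closer under 1, at 2106 against 2123 bp, and at 2 and over, at 4005 against 3909 bp. Wider regions tended to score higher in both sets, with a Spearman correlation across regions of 0.76 for isolated domains (n = 376) and 0.72 for other regions (n = 4774). These regions share the same libraries, and no test is attached.

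The 5 widest isolated domains measured 8.15 to 10.1 kb. The widest lay on 3L from 538156 to 548268. Replicate 2 held it as a single region of 10.5 kb with a score of 2.48, and replicate 1 held it as 2 regions with scores of 3.05 and 0.36. On X, an 8.74 kb domain from 9974646 to 9983380 scored 3.05 in replicate 1 and 2.62 in replicate 2, with widths of 8.00 kb and 9.20 kb. Another, an 8.40 kb domain on X from 4974574 to 4982976, stood 29.1 kb from its previous and 218 kb from its next region, and scored 2.98 in replicate 1 and 2.34 in replicate 2. On 3R, an 8.20 kb domain from 14916952 to 14925150 scored 3.10 in replicate 1 and 2.24 in replicate 2. The 4 that were 1 region in each replicate were wider and scored lower in replicate 2.

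The highest-scoring isolated domains reached close to the top of the whole list, 3.34 against 3.55 for the highest of the other regions. The first was a 3.56 kb domain on X from 9211616 to 9215180, almost midway between neighbours at 32.5 kb on each side, which scored 3.66 in replicate 1 and 3.10 in replicate 2. The second, 6.11 kb wide and on X from 20261546 to 20267654, scored 3.35 in replicate 1 and 3.37 in replicate 2, the most similar values among the top 5. Its next region stood 25055 bp away, just inside the limit. On 2L, the domain from 1609474 to 1615100 scored 3.53 in replicate 1 and 2.99 in replicate 2, and a 4.12 kb domain from 2490826 to 2494940 scored 3.40 in replicate 1 and 2.95 in replicate 2. The remaining one of the top 5, on 2L from 21424214 to 21425214, was 1001 bp wide, scored 3.28 and overlapped no region of either replicate list. Since 1001 bp is the lowest width in the list for the replicate set, and 1301 and 1302 bp in the replicate lists, the width limits differ between the lists and their part in this absence was not tested.

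At the other end, the 5 lowest-scoring isolated domains scored 0.01 to 0.14, measured 1.46 to 1.86 kb, and each appeared in a single replicate list. Replicate 1 alone held the domains on 3L from 18453036 to 18454890 (score 0.37) and from 22991238 to 22992700 (0.19). Replicate 2 alone held those on 2R from 8929108 to 8930904 (0.56), on 3R from 26067820 to 26069504 (0.36) and on 3L from 14665598 to 14667092 (0.48).

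Regions at the limit itself were mixed. Just inside it, with smaller gaps of 25009, 25017 and 25055 bp, stood regions with scores of 0.37, 1.44 and 3.29. Just outside it, with smaller gaps of 24947, 24787 and 24727 bp, stood regions with scores of 0.56, 1.91 and 1.22.

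Of the isolated domains a smaller share than of the other regions appeared in both replicates. A region was counted as present where a replicate list covered at least 50% of its length. Both lists held 295 of the 376 isolated domains (78.5%, 95% Wilson interval 74.0% to 82.3%), where 88.0% of all 5150 regions were held by both. Among the other regions it was 4238 of 4774 (88.8%, 87.8% to 89.6%), a difference of -10.3 percentage points. The difference was -18.4 points when 80% of the length had to be held, -3.67 without replicate 2 and -8.53 without replicate 1. Both lists held 85.0% of regions with 1 gap of at least 25 kb and 90.4% of those with none. The list of replicate 1 held 88.8% of isolated domains and that of replicate 2 held 86.2%. Replicate 1 alone held 39 isolated domains (10.4%), against 178 (3.73%) of the other regions, and replicate 2 alone held 29 (7.71%) against 283 (5.93%). Read depth is unknown, so a domain missing from a list cannot be told from one that the reads could not show, and Wilson intervals cover counting error only.

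Presence went with the score and with the width. Of isolated domains scoring 2 or more, 78 of 79 were in both lists (98.7%), against 2427 of 2429 other regions (99.9%). At scores of 1 to 2 it was 116 of 119 (97.5%) against 1022 of 1032 (99.03%), and under 1 it was 101 of 178 (56.7%) against 789 of 1313 (60.1%). At 2 or more the 95% Wilson intervals were 93.2% to 99.78% for isolated domains and 99.70% to 99.98% for other regions. They were 92.8% to 99.1% and 98.2% to 99.5% at 1 to 2, and 49.4% to 63.8% and 57.4% to 62.7% under 1. The isolated share was lower in each of the 3 classes. The intervals overlapped in each, which does not show that the shares are equal. When the other regions were weighted to the score classes of the isolated domains, 80.8% of them were in both lists, and the difference shrank to -2.33 percentage points. By width, both lists held 18.3% of isolated domains under 2 kb, against 20.0% of other regions. At 2 to 3 kb it was 85.8% against 94.4%, and at 3 to 4 kb 95.8% against 98.9%. At 4 kb and over it was 98.8% against 99.5%. Score and width went together, and their separate parts in presence were not tested.

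Within the replicates, 294 isolated domains were paired one to one with a region of each list. Their median score was 1.50 in replicate 1 and 1.38 in replicate 2 (mean 1.44 ± 0.09, SD, n = 2), against 2.30 in replicate 1 and 1.99 in replicate 2 for 3860 paired other regions. In width they had medians of 2791.5 bp (replicate 1) and 3259 bp (replicate 2). Replicate 2 gave the wider region for 232 of the 294 (78.9%) and the higher score for 114 (38.8%). Among the other regions these shares were 86.2% and 33.8%. Across domains the replicate scores had a Spearman correlation of 0.84 for the isolated (n = 294), against 0.86 for the other regions (n = 3860), given as a description. Few regions of either set were cut into pieces. Replicate 1 split 2 of the 376 isolated domains (0.53%), against 3.41% of the other regions, and replicate 2 split 4 (1.06%), against 1.21%. These shares also count domains that a list did not touch, since replicate 1 touched 338 of the 376 and replicate 2 touched 326. Isolated domains were also less often 4 kb or wider (22.1% against 29.2%). The parts of width and absence were not tested.

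**Figure D3:**
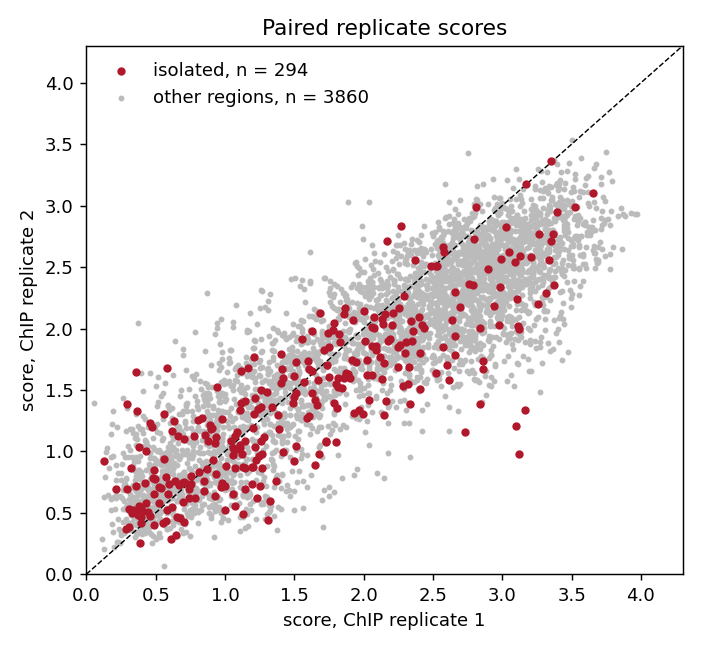
Score in ChIP replicate 1 (x axis) and in ChIP replicate 2 (y axis) of regions paired one to one, for 294 isolated domains in red and 3860 other regions in grey; the dashed line marks equal scores. Isolated domains lie in the same cloud as the others but lower along it, and a few stand far below the line at replicate 1 scores near 3.

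The 5 isolated domains farthest below that line lay near the centromere ends of the assembled arms. This was seen after the values were known and is given without a test. These 5 stood within 0.53 Mb of the centromere end of the assembled arm, 3 on 2R, 1 on 2L and 1 on 3L. The domain on 2R from 356510 to 360514 scored 3.12 in replicate 1 and 0.98 in replicate 2, with nearly the same width in both, 3939 and 3905 bp. On 2L, the domain from 22689078 to 22691868 scored 3.10 in replicate 1 and 1.21 in replicate 2. On 3L, the domain from 24020760 to 24024122 scored 2.84 in replicate 1 and 1.39 in replicate 2.

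Over the 16 paired isolated domains in the 1 Mb at the centromere ends, replicate 2 minus replicate 1 had a median of -0.74, against -0.09 for the 278 paired isolated domains farther away. Among isolated domains scoring 2 or more it was -1.45 for 9 near the centromere end and -0.42 for 67 elsewhere, and replicate 1 was higher in 9 of 9 and 55 of 67. Both the 16 and the 9 include the 5 domains picked above for their replicate difference, so these medians partly restate that choice. Other regions leaned the same way, since replicate 1 was higher by over 1 for 17 of 78 near the centromere end and for 171 of 3782 elsewhere, beside 5 of 16 and 8 of 278 isolated domains. Other regions scoring 2 or more had medians of -0.56 near the centromere end (n = 50) and -0.41 elsewhere (n = 2102). How well reads can be placed in these ends is not known from the lists, and its part in the difference was not tested. Over whole arms, replicate scores differed by over 1 for 5.44% of paired isolated domains and 5.52% of paired other regions.

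The empty surroundings were present in the single replicates as well. No other region touched the 25 kb on either side of 373 isolated domains in replicate 1 (99.2%) and of 346 in replicate 2 (92.0%). Both lists left the surroundings empty for 344 domains (91.5%, 95% Wilson interval 88.2% to 93.9%), where 7.01% of all regions had this. The rule chose the domains on their gaps, and the list for the replicate set covers the same libraries, so nothing is read from this contrast. The exceptions came mostly from replicate 2, where 29 regions reached into the surroundings of 30 domains. They scored 0.45 in the median, against 1.89 for all arm regions of replicate 2, and were narrow, at a median of 1592 bp against 3153.5 bp. In replicate 1 there were 3 such regions, with a median score of 0.46.

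**Figure D4:**
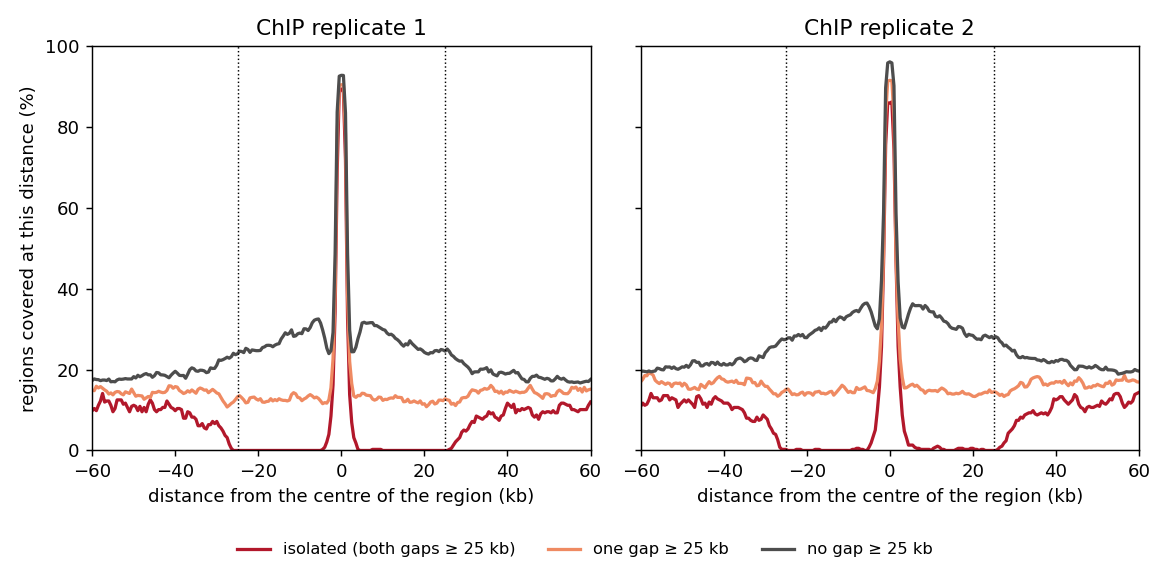
Percentage of regions covered in ChIP replicate 1 (left) and ChIP replicate 2 (right) at each distance in kb from the centre of the region, for isolated domains, regions with 1 gap of at least 25 kb and regions with none; dotted lines stand at 25 kb. Isolated domains are covered to 89.4% and 85.9% at the centre and to 0 and 0.17% on average between 10 and 25 kb.

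Beyond the limit the surroundings of isolated domains were less covered than those of the other classes. At 40 to 60 kb from the centre of an isolated domain, 10.6% of positions were covered in replicate 1 and 12.2% in replicate 2. At the same distance from regions with a neighbour within 25 kb on each side it was 17.9% in replicate 1 and 20.6% in replicate 2. Regions with a gap on 1 side had 14.5% in replicate 1 and 16.8% in replicate 2. The rule fixes what lies within 25 kb, and neighbouring positions are not independent, so these values are a description.

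Most but not all domains overlapped an isolated domain in each replicate list. When the rule was applied to each list by itself, 332 of the 376 (88.3%) overlapped an isolated domain of replicate 1, 293 (77.9%) one of replicate 2, and 267 (71.0%) one of each. In turn, 84.3% of the 394 isolated domains of replicate 1 and 85.2% of the 344 of replicate 2 overlapped one of the replicate set. Median scores were 1.41 for the 267 and 0.39 for the remaining 109, and median widths 3175 bp and 1989 bp. Of the 109, 76.1% scored under 1, against 35.6% of the 267. The 109 include domains with no region at all in at least 1 replicate list. Regions of both lists overlapped 79.8% of the 376 by at least 1 bp. The contrasts between the 267 and the 109 therefore mix absence from a list with loss of isolation. The median smaller gap was nearly the same, 39.3 kb for the 267 and 38.3 kb for the 109.

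Isolated domains were spread over all 5 arms. Of the regions considered, 2L had 9.42% isolated (87 domains), 3L 8.16% (83), 3R 7.24% (89), X 7.02% (64) and 2R 4.97% (53), against 7.30% over all arms. Arm 2L had 3.78 isolated domains per Mb, 3L had 3.38, 3R had 3.19, X had 2.85 and 2R had 2.51. The replicate lists by themselves gave 86.5 ± 9.19 domains for 2L, 82.5 ± 3.54 for 3L, 92.5 ± 7.78 for 3R, 57.5 ± 6.36 for X and 50.0 ± 8.49 for 2R (SD, n = 2). Replicate 1 gave more domains than replicate 2 on each arm, so part of this spread is shared by the arms. In numbers of domains 3R exceeded 2L within each replicate, by 98 to 93 in replicate 1 and 87 to 80 in replicate 2. X likewise exceeded 2R, by 62 to 56 and 53 to 44. These are counts and not densities, since 3R is 27.9 Mb long and 2L 23.0 Mb. Between 2L and 3L the counts were 93 and 85 in replicate 1 and equal at 80 in replicate 2. Arm 2R also had the densest marking, with a mean gap of 16.2 kb between regions, against 21.3 kb on 2L.

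On every arm the isolated domains scored lower than the other regions, with median differences of -1.08 on 3R, -1.05 on X, -1.05 on 2R, -0.92 on 3L and -0.71 on 2L. The share held by both replicate lists was 69.8% of 53 on 2R (95% Wilson interval 56.5% to 80.5%) and between 78.1% and 81.9% on the other 4 arms. These shares rest on 53 to 89 domains per arm of the same libraries, and no test was made between arms.

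Along the arms, the centromere ends held a larger share of isolated domains than of other regions on 4 of the 5 arms. Isolation is defined by gaps, so by the rule itself more regions tend to be isolated where regions are sparse. The contrast is therefore a description. The 2 Mb at the centromere end of each assembled arm held 39 of the 376 (10.4%, 95% Wilson interval 7.68% to 13.9%), against 254 of 4774 other regions (5.32%, 4.72% to 5.99%) and 5.69% of all. The intervals cover counting error only, and neighbouring regions are not independent. These 2 Mb ends make up 8.40% of arm length, which lies between the share of isolated domains and that of other regions. Arm 3L had 12.0% of its isolated domains and 1.93% of its other regions there (10 and 18), and 2L had 14.9% and 5.02% (13 and 42). Arm X had 7.81% and 4.25% (5 and 36), and 2R had 9.43% and 5.72% (5 and 58). The ends make up 8.15% of the length of 3L, 8.69% of 2L, 8.92% of X and 9.46% of 2R. Arm 3R went the other way, with 6.74% of its isolated domains and 8.76% of its other regions (6 and 100) in 7.17% of its length. The isolated share thus exceeded the share of length on 3L and 2L but not on X, 2R or 3R. Of the 293 regions in these ends 13.3% were isolated, against 6.94% of the regions elsewhere. The contrast depended on the limit, at 16.7% against 7.08% for a limit of 1 Mb and 9.13% against 7.00% for 4 Mb. With each arm cut into 5 equal parts, 7.77% of regions were isolated in the part next to the centromere and 6.52% to 7.94% in the other 4, with no trend along the arm. Within the 2 Mb ends, 35.7% of regions were isolated on 3L, 23.6% on 2L, 12.2% on X, 7.94% on 2R and 5.66% on 3R. At the telomere ends, 10.1% of isolated domains and 9.51% of other regions lay in the outer 2 Mb.

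**Figure D5:**
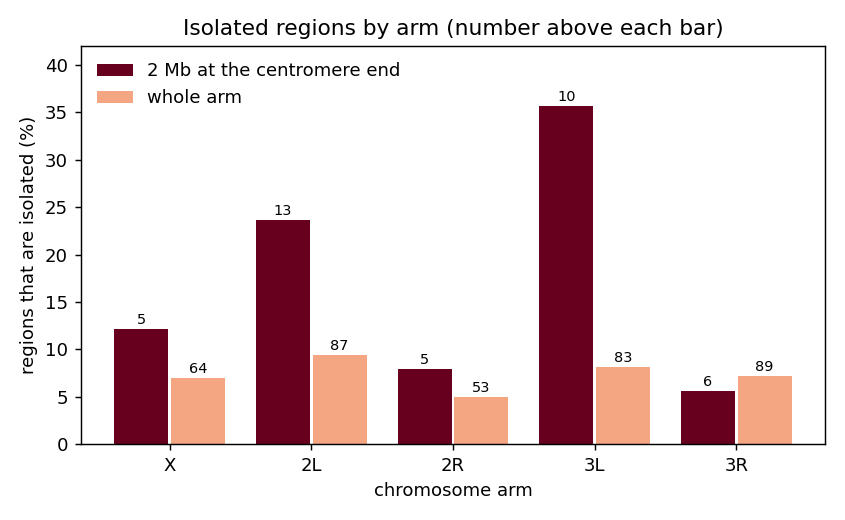
Percentage of regions that are isolated (y axis) in the 2 Mb at the centromere end and in the whole arm, for each large arm (x axis); the number above a bar counts isolated domains. The centromere ends of 3L (35.7%) and 2L (23.6%) stand above their whole arms, whereas that of 3R (5.66%) does not.

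The 1 Mb at the centromere ends held 20 isolated domains, of which 16 were held by both replicate lists. Their median score in the replicate set was 1.63, against 1.05 for the other isolated domains, but the direction was not shared by the replicates. Over the paired domains it was 2.66 (n = 16) against 1.49 (n = 278) in replicate 1, and 1.27 against 1.39 in replicate 2. The 16 include the 5 domains picked above for their replicate difference. With 4 Mb in place of 1 Mb the medians in the replicate set were 0.98 and 1.06. Arm 2L held 7 of them, 2R and 3L 4 each, 3R 3 and X 2. The domain closest to the assembled end was on 2R from 73744 to 76584, which scored 2.57 in the list for the replicate set, with 3.16 in replicate 1 and 1.34 in replicate 2. The highest score of the 20, 3.02, belonged to a 6.24 kb domain on 3R from 907572 to 913808.

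Few isolated domains had no counterpart in either replicate. No replicate region touched 12 of the 376 (3.19%, 95% Wilson interval 1.83% to 5.49%), where 1.69% of all regions had none. Among the other regions it was 75 of 4774 (1.57%, 1.26% to 1.96%). Of the 12, 10 scored under 1 and 8 were narrower than 1300 bp, below the narrowest region of either replicate list. The 2 that scored above 1 both lay on 2L, from 21424214 to 21425214 (score 3.28) and from 21539872 to 21540990 (score 1.32).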

How the data were processed

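The authors deposited a list of enriched regions for each ChIP replicate and 1 for the replicate set, with start and end on FlyBase release 5 and 1 score per region in no stated unit, per the file headers. The submitters' processing notes name Bowtie 0.12.7 for alignment. No source used here names the region caller, its threshold or how the replicate set was formed, and read depth is unknown. Input samples have no list here. Gaps were computed as start minus the neighbour's end minus 1. The first and last region of each arm (10 in all) were left out. A list covered a region at 50% or more of its length, and 1300 bp served as a width minimum in an alternative. Pairing one to one needed exactly 1 overlapping region in either direction. Shares carry 95% Wilson intervals. Since the rule uses the measured list, no test was made. Regions were named by rank: 10 by smaller gap, 5 each by width and by highest and lowest score, and 3 on either side of the limit. Domains added after their values were seen are the long runs, those with the largest replicate difference, those nearest the centromere and those in neither list. The domains and comparisons were chosen with earlier results of these data known. The code was tested on simulated lists. Python 3.11.15, numpy 2.4.6, pandas 2.3.3, scipy 1.17.1 and matplotlib 3.10.9 were used.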

Additional observations from a re-analysis of the deposited data

How the results depend on the processing

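No paired analysis was possible because the input samples have no list here to set against ChIP. The 2 ChIP lists were paired region by region, as a description. A gap limit of 50 kb left 120 isolated domains by construction, and reversed the width difference to 22 bp against -224 bp; the cause was not tested. The width difference was -282 bp with 20 kb, -160 bp in the higher-scoring 50% of regions, -264 bp with neighbours under 500 bp apart merged, and -130 bp for regions of at least 1300 bp. The score difference came to -0.10 in the higher-scoring 50%, which removes low scores by construction. The share held by both lists moved to 99.7% in that set, 84.1% for regions of at least 1300 bp and 59.8% with an overlap limit of 80%. The matching difference from other regions moved to -0.22, -6.72 and -18.4 percentage points, and to -2.33 with score classes weighted. The share in the centromere ends was 9.98% with 20 kb, 11.7% with 50 kb, 5.32% in 1 Mb (other regions 2.09%, arm length 4.20%) and 17.8% in 4 Mb (14.0% and 16.8%). Of 31 such alternatives, 13 moved by at most the SD between replicates (or, for counts of domains, by under 1.5 times). Using 1 replicate at a time gave 344 to 394 domains, -189.5 to -163 bp, -1.01 to -0.63 in score, 86.2% to 88.8% held, -8.53 to -3.67 percentage points, 92.0% to 99.2% with empty surroundings, 10.2% to 10.4% in the centromere ends, paired scores of 1.38 to 1.50 and paired widths of 2791.5 to 3259 bp. Depth is unknown and limits what can be said of missing domains.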

Other observations

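The 2 isolated domains on 2L that score above 1 and touch neither replicate list border the same short stretch, and the limits used here were chosen after it was seen. Between them, over 117 kb, the replicate set holds 5 regions of 2015 to 2485 bp with scores of 1.05 to 1.70, which follow one another at start-to-start distances of 4888 to 5064 bp. On the 5 arms this was the 1 place with at least 3 such distances of 4.8 to 5.2 kb in a row. Replicate 1 touched 2 of the 5 regions and replicate 2 touched 4. The first of the 5, from 21458454 to 21460468 with a score of 1.70, was in neither list. Which genes or repeats lie there was not looked up, since no release 5 annotation was used.

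The same rule can be applied to the sequences outside the large arms. It gave 24 isolated regions among 38 on U, 5 of 13 on 2RHet, 5 of 18 on 3LHet, 5 of 9 on 3RHet and 2 of 64 on chromosome 4. Their median scores were 1.34 on U, 2.01 on 2RHet, 1.84 on 3LHet, 1.68 on 3RHet and 1.40 on chromosome 4. All regions of these sequences had medians of 1.34, 1.99, 2.03, 1.68 and 1.66 in the same order. The 2 regions on 2LHet, 4 on XHet and 6 on YHet included no isolated one. U joins unplaced scaffolds, so a gap there is not a distance on a chromosome.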
